A study of Gallus gallus with 2 samples.

Results

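The Z chromosome was described through the 785 probes, of 42034 gene probes on the array, that the array's annotation places on it by galGal2 coordinates; 1 further probe was left out by the name of its gene. The probes ran from 0.068 to 33.57 Mb. A gene symbol was found for 207 of them, 188 different symbols in all, and 578 carried only an expressed-sequence or cluster name. The choice used the position alone and no measured value.

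Birds carry the sex chromosomes the other way round from mammals: males have a pair of Z chromosomes, and females have 1 Z and a small W. The excess of Z copies in males is only partly evened out in birds, gene by gene, and not by silencing a whole chromosome as in female mammals. A few old Z genes have a counterpart on W, so that females also carry a pair of copies of these. A Z gene with no evening out would be expressed in proportion to its copies.

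The samples were whole brains of newly hatched Cobb chicks, either trained for filial imprinting for 1 h or kept in the dark, 16 chicks each. Their RNA was sexed by RT-PCR and combined into 4 pools of 8 chicks: trained females, dark-reared females, trained males and dark-reared males. All 4 pools shared strain, tissue and age as labelled, and the labels name no genetic change or drug. Each sex had 1 array, with the trained pool in Cy3 (green) and the dark-reared pool in Cy5 (red). A male minus female difference, given as log2, was therefore taken between arrays but within a dye, and a training ratio, log2 of trained over dark-reared, within an array but between dyes. Sex and array cannot be told apart, so the male minus female differences are described and not tested. The trained and the dark-reared pools held different chicks, but they shared the 2 arrays, and their agreement is no test of the arrays. Both arrays carried the dyes the same way round, and what a dye does at a given probe cannot be told apart from that probe's training ratio.

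The labelled sexes and tissue were checked first. The brightest probe of HINTW, a gene known from W, was well above background in both female pools and in neither male pool. It was at least 314.587-fold higher in females among trained and at least 309.545-fold among dark-reared chicks. For these bounds a dim value counted as no lower than the faintest signal that was well above background in its channel and array. Probes of 2 other W genes, HNRNPKL and UBE2R2L, and a second HINTW probe were likewise well above background in females alone, 4 of the 9 probes of genes on W in the newer assembly GRCg7b. Another 4, of SPIN1L, LOC427010 and MIR7B, were well above background in all 4 pools, 1.00- to 1.27-fold higher in females, and the 1 of MBD2 was in none. All 6 neuronal markers with a probe, 3 of 3 astrocyte markers and the 1 oligodendrocyte marker with a probe (MBP) were detected in all 4 pools, as were 2 of 2 blood and 2 of 2 liver markers, while 0 of 2 muscle markers were. No probe was saturated. With 1 pool per sex and condition, fewer cells of a type and less RNA per cell cannot be told apart.

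More Z probes were detected in males than in females, in both conditions. Well above background were 529 of 785 in trained females and 555 in trained males, 570 in dark-reared females and 593 in dark-reared males. Over all probes of the array the share was 62.9% in trained females and 61.5% in trained males. It was 66.5% in dark-reared females and 66.4% in dark-reared males. Among trained pools 33 Z probes were detected in the male and not in the female, and 7 the other way; among dark-reared pools the numbers were 35 and 12. These counts within a condition were not computed for the whole array. Of the 785 probes, 563 (71.7%) were detected in at least 1 pool of each sex and are called kept from here on, 33 (4.20%) only in a male pool, 12 (1.53%) only in a female pool, and 177 in none. On the numbered chromosomes, the autosomes, leaving out probes whose gene lies on Z or W in GRCg7b, 1.52% of 32247 probes were detected only in males and 1.89% only in females. The values below cover the kept probes, and a probe not well above background in either pool of 1 sex is not among them. RASA1, a Ras regulator with a W counterpart, was one of the probes detected only in males.

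Kept Z probes were higher in males in both conditions. The median male minus female difference was 0.21 among trained pools (1.16-fold) and 0.23 among dark-reared pools (1.17-fold), and 475 and 480 of 563 probes were above 0. The medians of 28 numbered chromosomes, here with all their kept probes, lay between -0.04 and 0.01 in trained and between -0.03 and 0.01 in dark-reared pools, so Z stood outside their range in each dye. With the scanner software's own background-subtracted and dye-normalized signals in place of the values used here, the Z medians came to 0.43 and 0.45. With only a smaller offset in the background step they were 0.29 and 0.32. The size of the male excess thus depended on the processing of background and dyes together by more than 1.5 times, and its direction did not.

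The male was at least 1.5-fold higher (0.58 on the log2 scale) at 77 of 563 probes in trained pools, where 0.833% of all kept probes of the array passed, and at 98 in dark-reared pools, where 1.03% passed. In both conditions 65 probes passed (11.5%), against 0.621% of all kept probes and 7 of 22259 on the numbered chromosomes. That number was 99 with a smaller offset in the background step and 181 with the processed signals. At a lower threshold, 25% higher in males (0.32 on the log2 scale) in both conditions, 174 passed (30.9%), against 1.66% of all kept probes. Taken by the mean of the conditions, 5 Z probes were at least 2-fold higher in males, 81 were 1.5- to 2-fold higher, 124 were 25% to 50% higher and 273 were higher by less than that. The rest were higher in females, 7 by at least 25% and 73 by less. The female was at least 1.5-fold higher in both conditions at 1 Z probe, with 0.0913% of all kept probes, and at least 25% higher at 4, with 0.343%.

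The spread among Z probes was wider than on the autosomes and was much the same in the 2 conditions. The SD of the mean difference was 0.30 over 563 Z probes and 0.10 over 22259 autosomal probes, with quartiles at 0.08 and 0.45 on Z and at -0.06 and 0.05 on the autosomes. Across the 563 Z probes the trained and dark-reared differences had a Pearson r of 0.89 and a Spearman rho of 0.87, and across the 22259 autosomal probes an r of 0.29. Both conditions were read on the same 2 arrays, so these correlations also include whatever each probe's spots shared. The median absolute disagreement between the conditions on Z was 0.08. Probes of 1 gene that do not overlap agreed less well: over 17 pairs from 13 genes the median absolute difference was 0.19 and the largest, for the mismatch repair gene MSH3, was 0.66, and 15 of the pairs had the same sign.

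**Figure D1:**
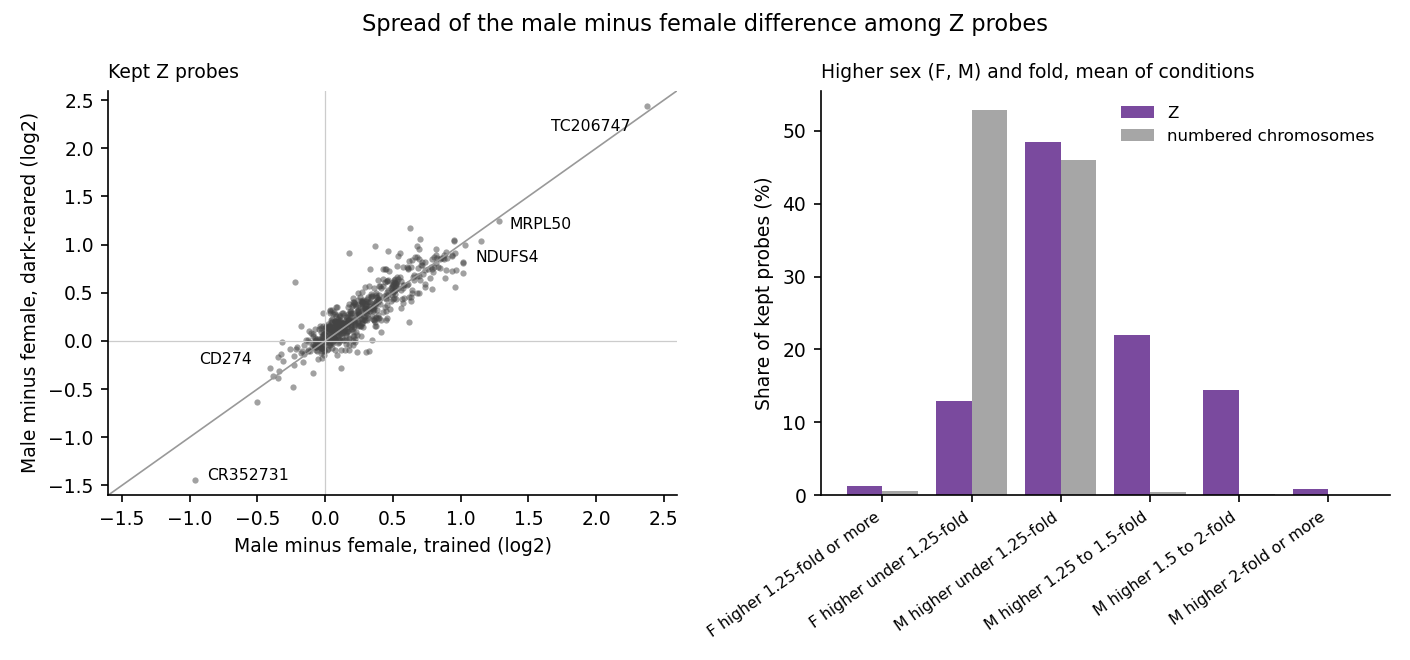
Left, male minus female differences (log2) of the 563 kept Z probes, trained pools on the x axis and dark-reared pools on the y axis, with the line of equality. Right, the share of kept probes (%) by the sex with the higher mean and by fold, for Z and for the numbered chromosomes; on Z, 124 probes were 25% to 50% higher and 81 were 1.5- to 2-fold higher in males, bins that are nearly empty for the numbered chromosomes.

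How bright a probe was moved with its difference. Ranked by mean signal into 3 groups, the 188 dimmest kept Z probes had a median difference of 0.12, the 187 in the middle 0.33 and the 188 brightest 0.30. With a smaller offset in the background step (16 in place of 50) the medians were 0.21, 0.41 and 0.31, and with the software's processed signals they were 0.51, 0.49 and 0.29. The brightest group thus kept nearly the same male excess, 1.23- to 1.24-fold, under all 3, while the order of dim and bright probes turned around. An added offset pulls the ratios of dim spots toward 0 by its construction. Autosomal probes in the same ranges of signal had medians between -0.0125 and -0.00094.

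**Figure D2:**
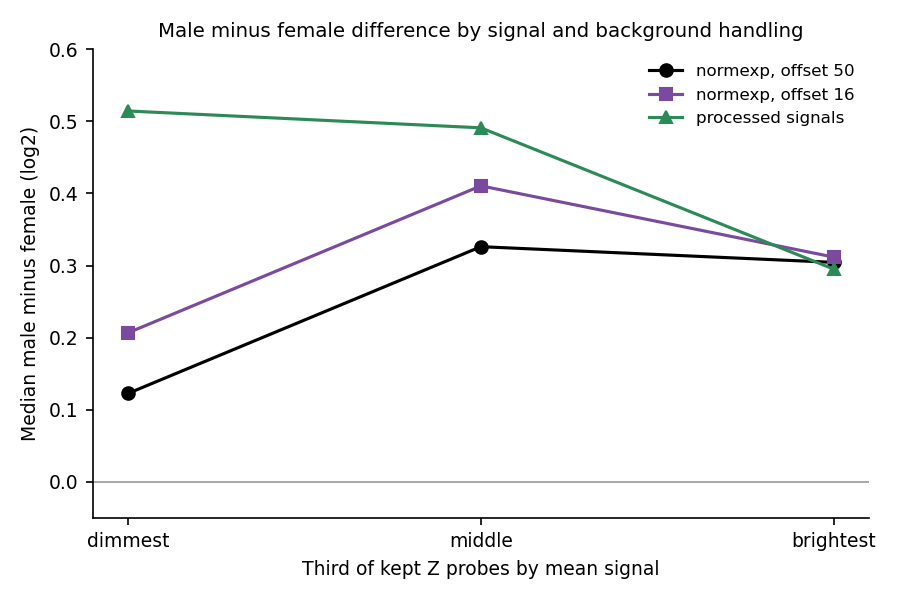
Median male minus female difference (log2, y axis) of kept Z probes in 3 groups by mean signal (x axis), for 3 ways of handling background. The processed signals also differ in dye normalization. The lines meet near 0.30 for the brightest probes and spread from 0.12 to 0.51 for the dimmest.

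The male excess ran along Z as far as the probes placed on it by galGal2 reach (0.068 to 33.57 Mb). Genes on Z in GRCg7b that galGal2 places elsewhere have no position here. In 2 Mb bins, 16 of which held at least 20 kept probes, the median of the mean difference was lowest at 6 to 8 Mb (0.12, 31 probes) and highest at 0 to 2 Mb (0.35, 35 probes), and all 16 were above 0. In trained pools the bin medians ran from 0.11 to 0.33 and in dark-reared pools from 0.14 to 0.40. The bin at 20 to 22 Mb held only 3 kept probes. Besides the first bin, those at 2 to 4 Mb (0.33), 28 to 30 Mb (0.27) and 24 to 26 Mb (0.26) had the highest medians, and those at 18 to 20 Mb (0.13), 30 to 32 Mb (0.15) and 10 to 12 Mb (0.16) the next lowest. With the processed signals the order changed in part: the highest bin was at 2 to 4 Mb (0.70) and the lowest at 30 to 32 Mb (0.23). The share of probes with a male excess of at least 25% in both conditions was 45.7% at 0 to 2 Mb, 44.1% at 28 to 30 Mb, 16.1% at 6 to 8 Mb and 11.5% at 18 to 20 Mb.

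Probes near each other differed widely, and position accounted for little of the spread. Within bins the range between the quartiles was 0.21 to 0.50, and bins accounted for 3.91% of the variance over 560 probes. Part of such a share arises without any difference between bins, and that part was not computed. Bin medians vary less than single probes by construction, so the spread within bins cannot be ranked against theirs. It also includes disagreement between probes of 1 gene (median 0.19). Across the 563 probes, which share arrays and pools, position and difference had an r of -0.04 and a rho of -0.05. At 10 to 12 Mb, the bin with the most probes (66), the lower quartile was -0.03 and the upper 0.40. A close case is at 3.91 Mb, where the 2 probes of TRAPPC13, a subunit of a vesicle tethering complex, had means of 0.88 each (chrZ:3909226-3910181 and chrZ:3910522-3910582) while SGTB, a co-chaperone whose probe lies at chrZ:3912839-3912898, had 0.07 in both conditions. SGTB was read at 10.06 in trained females, 10.13 in trained males, 9.96 in dark-reared females and 10.02 in dark-reared males (log2 signal).

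**Figure D3:**
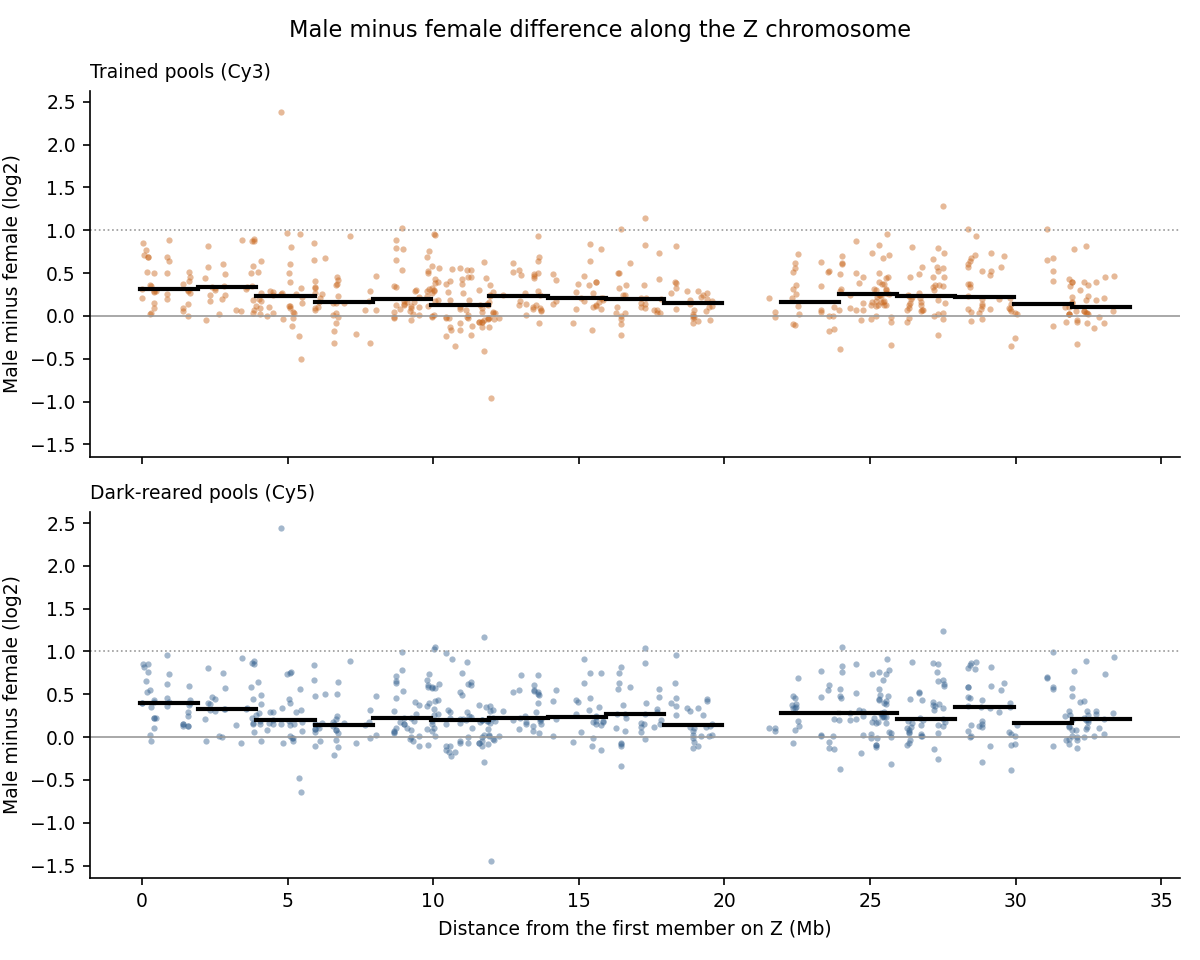
Male minus female difference (log2, y axis) of each kept Z probe against its distance in Mb from the first probe (x axis), for trained pools above and dark-reared pools below; black bars are medians of 2 Mb bins with at least 20 probes, and the dotted line marks 2-fold. All bars lie above 0, between 0.11 and 0.40, with the points of each bin spread widely around them.

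Some probes that galGal2 places on Z belonged elsewhere in a newer assembly, and the reverse. Of the 207 probes with a symbol, 202 had their gene on Z in GRCg7b, and the 167 of these that were kept had medians of 0.31 in both conditions, with 65 (38.9%) at least 25% higher in males in both. The 392 kept probes with no gene record had medians of 0.18 and 0.20, with 109 (27.8%). The gene lay on another chromosome for 5 probes, 4 of them kept. The 3 of these at about 19 Mb, for REEP6, the ribosomal protein gene RPS15 and the RNA-binding protein gene DAZAP1, read -0.01, 0.03 and -0.08 (the last 0.02 with the processed signals), and the fourth, NXN, had 0.35 on the same mean scale. The first 3 lie in the bin at 18 to 20 Mb, which had one of the lowest medians.

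Conversely, 252 probes that galGal2 puts on another sequence belonged to genes on Z in GRCg7b. The 215 kept had medians of 0.25 and 0.28, and 81 (37.7%) were at least 25% higher in males in both conditions. The 6 placed on an unordered part of Z, all kept, were probes of the microRNAs MIR24-2, MIR27B and MIR23B. They had a median of -0.05 on the mean scale, and 0 passed. The other microRNA probes among the 252 ran from -0.22 to 0.07, so this value may not stand for that part of Z. Among the 252 probes, 20 were placed on W by galGal2, and the 18 kept had a median of 0.52 toward males. The 60 kept probes that galGal2 places on W likewise had a median of 0.40 toward males, and the label W in these coordinates did not mark female-specific signal.

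Named genes among the probes that galGal2 places on Z were read from their brightest probe. They include the genes of the 4 kept probes whose gene lies off Z in GRCg7b. Of 156 kept genes, 59 (37.8%) were at least 25% higher in males in both conditions, 33 at least 1.5-fold and 0 at least 25% higher in females; the median difference was 0.32 and the SD 0.30. The gene groups that follow were assembled with earlier results of these data known, and their medians are descriptions.

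The mitochondrial group had the highest median of the groups described, 0.96 over 4 members. All 4 members were at least 25% higher in males in both conditions, beside 37.8% of the 156 named genes and 1.66% of all kept probes. ACO1 of the same list lies on Z in GRCg7b but not in galGal2. It had 0.17 in trained and 0.33 in dark-reared pools, and did not reach 25% in both. MRPL50, a protein of the large subunit of the mitochondrial ribosome (chrZ:27561239-27561298), was read at 9.73 in trained females, 11.01 in trained males, 10.05 in dark-reared females and 11.29 in dark-reared males. Both male pools were above both female pools, and the mean difference was 1.26 ± 0.03 (SD, n = 2 conditions), or 2.40-fold. NDUFS4, a subunit of respiratory complex I (chrZ:9007833-9007892), was read at 9.60, 10.63, 9.84 and 10.83 in the same order, a mean of 1.01 ± 0.03. The mitochondrial ribosomal proteins MRPS30 and MRPS27 had 0.91 and 0.54. All 4 members were bright, at 9.62 to 10.52, and their median was 1.00 with the processed signals.

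The 3 measured members listed as having a counterpart on W had a median of 0.70, beside 0.32 over all 156 genes. Other genes of this list lie on Z in GRCg7b but not in galGal2, and their kept probes ran both ways. NIPBL read -0.38 and -0.20 at its probes, and UBAP2 -0.40 and 0.08. SUB1 read 0.49, GOLPH3 0.67, UBE2R2 0.70, TXNL1 0.77 and ST8SIA3 0.82. SMAD2, a mediator of TGF-beta signals (chrZ:120148-120207), was read at 10.26 in trained females, 11.11 in trained males, 10.20 in dark-reared females and 11.06 in dark-reared males, 0.86 higher in males in both conditions. The chromatin remodeller CHD1 was 0.63 and 0.77 higher in males, and the chromatin reader SPIN1 0.31 and 0.27. Whether these probes also take up the W copies in females was not tested. RASA1 was not well above background in either female pool.

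Members of the cytosolic ribosome and translation group had a median of 0.54, with 3 of 4 at least 25% higher in males in both conditions. That share was 37.8% over the 156 named genes and 1.66% over all kept probes. NSA2, a factor in the making of the large ribosomal subunit, was 0.75 ± 0.01 higher in males (SD, n = 2 conditions). RPS23 and RPS6, of the small subunit and among the brightest probes on Z, were 0.56 and 0.52 higher, and RPL37 was 0.41 higher in trained but 0.09 in dark-reared pools. Of the same list, RPL17, NARS and TARS lie on Z in GRCg7b but not in galGal2. Their means were 0.02, 0.29 and 0.55, and TARS alone reached 25% in both conditions. Of 6 DNA repair and cell cycle genes, 4 were at least 25% higher in males in both conditions, beside the same 37.8% and 1.66%, with a median of 0.55. CCNH, the cyclin of the CDK-activating kinase, had 0.83, the brighter probe of MSH3 0.75 (its dim other probe 0.10), the end-joining factor XRCC4 0.67 (1.01 with the processed signals) and the checkpoint gene RAD17 0.43. The repair polymerase POLK and the kinase PLK2 had 0.22 and 0.11, and both were dim: with the processed signals they had 1.32 and 0.55. XPA, FANCG, APTX and FANCC of this list lie on Z in GRCg7b but not in galGal2. Their means were 1.01, 0.93, 0.75 and 0.58, and each reached 25% in both conditions.

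The 2 lipid genes described from the members were split. PLIN2, which coats lipid droplets, was 0.83 ± 0.15 higher in males (SD, n = 2 conditions). HMGCS1, an enzyme of sterol synthesis, was read at 13.77 in trained females, 13.68 in trained males, 14.02 in dark-reared females and 13.98 in dark-reared males, a difference of -0.06 that turned to 0.02 with the processed signals. Neither sex stood apart at this bright probe. HSD17B4 of the same list, on Z in GRCg7b but not in galGal2, had a mean of 0.84.

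The matrix and growth factor groups had the lowest medians, 0.05 and 0.15, while that of the 3 neuronal genes was 0.33. With the processed signals the neuronal median was 0.30, below the 0.41 of the growth factor group. In these groups 0 of the 10 measured members reached 25% in both conditions, beside 37.8% of the 156 named genes and 1.66% of all kept probes. That count was not recomputed with the processed signals. There the means of PIK3R1, GHR, FST, IL6ST and PTPRD passed 25%, and those of GNAQ, MAP1B, VCAN, HAPLN1 and THBS4 did not. Other genes of these lists lie on Z in GRCg7b but not in galGal2. Of these, PRLR (mean 0.94) and the kept probe of FBN2 (0.38) reached 25% in both conditions. The kept probes of the others did not. LIFR had 0.11, GDNF 0.003, CNTFR -0.08, SNCAIP 0.23, KCNN2 0.22, VLDLR 0.09, SLC1A1 -0.09, and EFNA5 0.14 and 0.006. MAP1B, a microtubule protein of growing axons, was read at 12.84 in trained females, 12.68 in trained males, 12.81 in dark-reared females and 12.77 in dark-reared males, 0.10 lower in males on average. GNAQ, a G protein subunit, had 0.33. The receptor phosphatase PTPRD had 0.62 in trained and 0.19 in dark-reared pools, the largest disagreement between the conditions among the named genes. The insulin pathway subunit PIK3R1 had 0.31, the growth hormone receptor GHR 0.16, the activin antagonist FST 0.13 and the cytokine receptor IL6ST 0.10. GHR, FST and IL6ST were dim, and the median of the growth factor group, 0.15 here, was 0.41 with the processed signals. The matrix genes VCAN, HAPLN1 and THBS4 had 0.22, 0.05 and 0.02, with a group median of 0.05 that became 0.24. Of these measured members THBS4 was the brightest, and it had 0.04 with the processed signals.

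**Figure D4:**
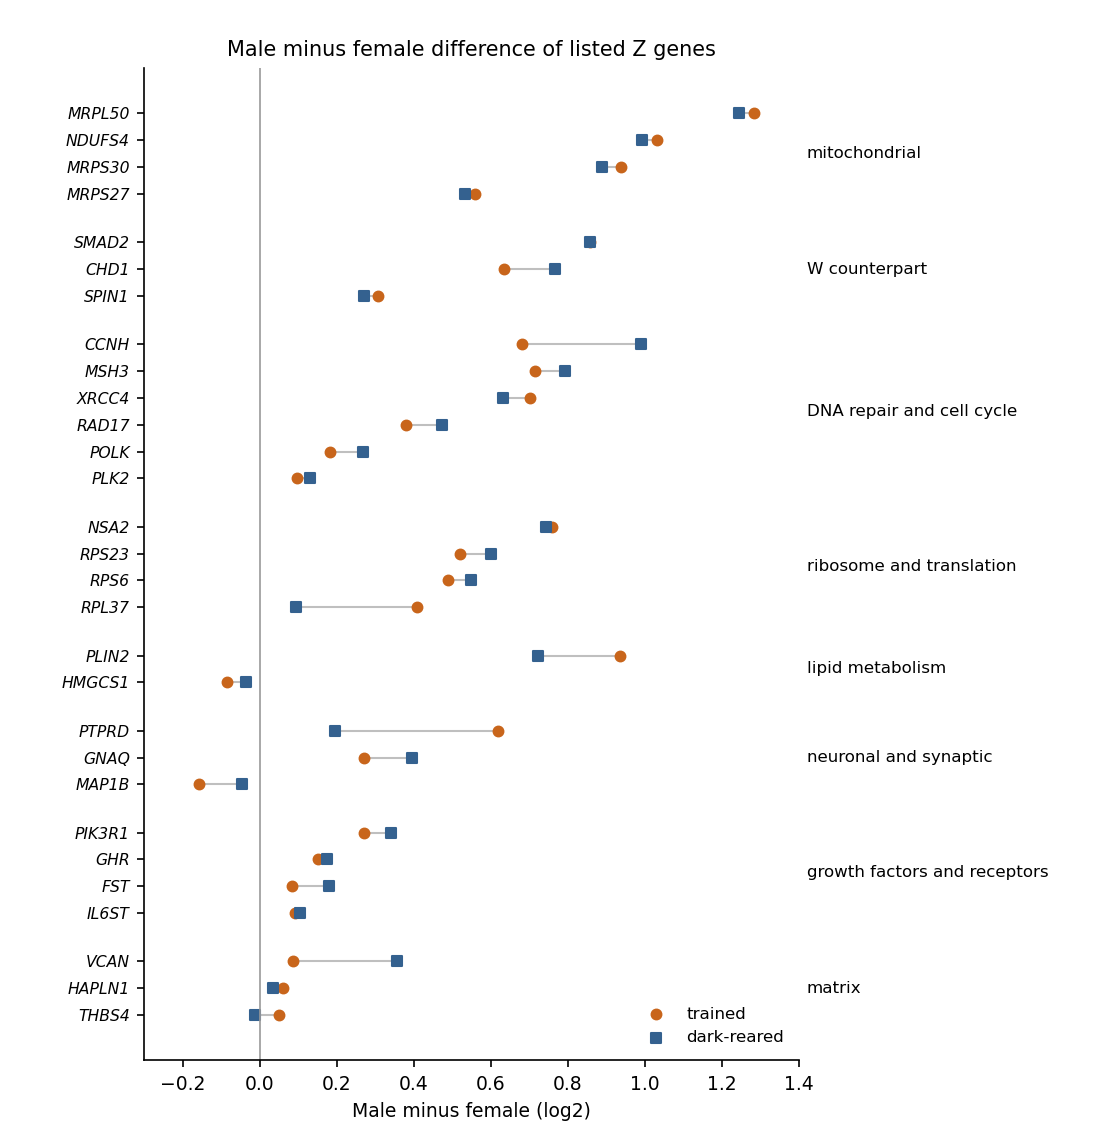
Male minus female difference (log2, x axis) of the members described in 8 groups, with circles for trained and squares for dark-reared pools. Genes that galGal2 places off Z are not drawn. Mitochondrial members lie between 0.53 and 1.28, and matrix members between -0.01 and 0.36.

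Outside these groups, the named genes with the largest male excess were ZFAND5 (1.02 in trained and 0.82 in dark-reared pools), the adenylate kinase AK6 (1.01 and 0.81), the spliceosome protein CWC27 (0.89 and 0.92), TRAPPC13 (0.90 and 0.86), GNE, the key enzyme of sialic acid synthesis (0.70 and 1.05), and the condensin subunit SMC2 (0.81 and 0.89). The other 2 probes of AK6 had lower means, 0.59 and 0.58. CRHBP, which binds the stress hormone CRH, was 0.55 higher in trained and 0.92 in dark-reared pools, and TNPO1, a nuclear import receptor, 0.54 and 0.88; a second, dim probe of TNPO1 had a mean of 0.22. NRG1, a neuregulin read at 12.04 to 12.13 in all 4 pools, had 0.02, and PLPPR1 had 0.05.

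Among the named genes lowest in males, the size of the difference depended on the processing at CD274, F2RL1 and CHRNA8. The bright MAP1B kept -0.10 with the smaller offset and with the processed signals. CD274, the immune checkpoint ligand (chrZ:11821618-11821677), was read at 7.35 in trained females, 6.94 in trained males, 7.24 in dark-reared females and 6.95 in dark-reared males. Both females were above both males, by a mean of 0.34 on the log2 scale (1.27-fold), which became 0.46 with the smaller offset and 0.56 with the processed signals. The protease-activated receptor F2RL1 and the nicotinic receptor subunit CHRNA8 had -0.19 and -0.12, and -0.46 and -0.22 with the processed signals.

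The extremes of the whole set were probes without a gene name, singled out after their values were seen. TC206747 (chrZ:4849565-4849624) was read at 6.09 in trained females, where it was not well above background, 8.47 in trained males, 6.19 in dark-reared females and 8.63 in dark-reared males. Both males were above both females, by at least 5.20-fold in trained pools and by 2.44 on the log2 scale in dark-reared pools. It lies between the 2 probes of PIK3R1, whose means were 0.20 and 0.31. CR352731 (chrZ:12043320-12043379) went the other way, at 7.54 in trained females, 6.58 in trained males, 8.06 in dark-reared females and 6.61 in dark-reared males. It was the 1 Z probe at least 1.5-fold higher in females in both conditions, with a mean of 2.31-fold. TC226229, CR406665 and CR406175 were also at least 25% higher in females in both.

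Training ratios on Z lay within the range of the autosomes. The study asked which genes rise after imprinting. The median training ratio of the kept Z probes was -0.01 in females and -0.03 in males, and the 28 numbered chromosomes ranged from -0.05 to 0.05 in females and from -0.04 to 0.05 in males. In 2 Mb bins the medians ran from -0.05 to 0.06 in females and from -0.07 to 0.01 in males, with 10 and 14 of 16 bins below 0. Changed at least 1.5-fold were 7 Z probes in females, with 0.964% of all kept probes, and 8 in males, with 1.3%. Across the 563 probes the female and male ratios had an r of 0.70 and a rho of 0.64, and across 22259 autosomal probes 0.67 and 0.64; both arrays had the same dyes the same way round. The male minus female difference and the mean training ratio had an r of -0.03 over the same probes, which share all 4 pools.

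The limma test over both arrays, which took the sexes as replicates, called 23 Z probes higher after training (4.09%) and 66 lower (11.7%) at an adjusted p below 0.05. Over all 27372 kept probes 6.31% were called higher and 11.2% lower, so the Z shares lay near the background. With each array's ratios centred on their median in place of loess the split was 9 higher and 374 lower on Z and 974 and 16499 over the array, whose median itself moved to -0.30 in females and -0.39 in males. With the processed signals limma called 0 on Z and 0 over the array, with 82 Z probes at an unadjusted p below 0.05, and with the smaller offset 2 higher and 12 lower.

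RPS23, of the small ribosomal subunit, had the most negative ratio among named Z genes. Its probe (chrZ:29207157-29207216) was read at 14.92 in trained and 15.47 in dark-reared females, and at 15.44 in trained and 16.07 in dark-reared males. Within each sex the trained pool was below the dark-reared pool, by a mean of 0.59 ± 0.06 (SD, n = 2 arrays), with a limma adjusted p of 0.0082. RPS6 fell by 0.42 ± 0.04 (limma adjusted p = 0.010). GNE fell by 0.51 (limma adjusted p = 0.018) and the centriole gene POC5 by 0.38 (limma adjusted p = 0.012). NSA2 rose by 0.31 (limma adjusted p = 0.016), so the ribosome and translation group had 1 member higher and 2 lower of 4. The mitochondrial genes MRPL50 and NDUFS4 fell by 0.30 and 0.22, and the repair genes MSH3 and RAD17 fell by 0.37 and 0.27. PIK3R1 fell by 0.31 and HMGCS1 by 0.27. With the processed signals, where limma called none of these genes, RPS6 read -0.25, GNE -0.30, POC5 -0.13, NSA2 0.15, NDUFS4 -0.42, PIK3R1 -0.16 and HMGCS1 0.08. The W counterpart, neuronal and matrix groups, with 3 measured members each, had 0 called by limma in either direction, and 0 at an unadjusted p below 0.05. Over all kept probes limma called 6.31% higher and 11.2% lower, and groups of this size cannot be set apart from those shares.

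PTGR1, a reductase of prostaglandin and leukotriene metabolites (chrZ:32528135-32528194), had the highest ratio of the named genes. It was read at 10.14 in trained and 9.49 in dark-reared females, and at 10.17 in trained and 9.80 in dark-reared males, higher after training in each sex, by a mean of 0.52 ± 0.19 (SD, n = 2 arrays; limma adjusted p = 0.013). ATP6AP1L, SH3GL2, an endophilin of synaptic vesicle recycling, and the peptide-amidating enzyme PAM rose by 0.24, 0.23 and 0.23 (limma adjusted p = 0.035, 0.037 and 0.037), and the first and last of them read 0.11 and 0.15 with the processed signals. All 5 of these, NSA2 included, read below 0 when ratios were centred on the median, where the whole array was shifted down. Among probes without a gene name, singled out after their values were seen, BU419435 had 0.97 and AJ720893 -0.86.

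Different probes of a gene often disagreed on training. Of the 17 pairs of non-overlapping probes, 8 had the same sign. The brighter probe of PAM had 0.23 and its other probe -0.30 (limma adjusted p = 0.029), each past the threshold in its own direction. The 2 probes of TRAPPC13 had -0.48 and -0.02, though they had the same male minus female difference, and those of PIK3R1 had -0.31 and -0.04. A gene's call on training here is thus that of 1 probe.

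**Figure D5:**
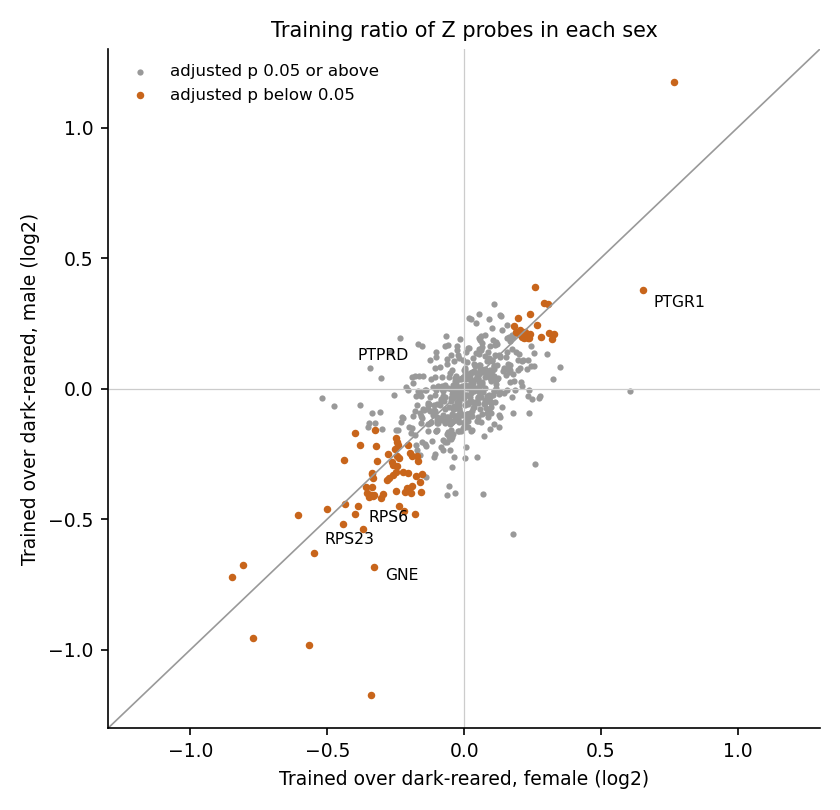
Training ratio (log2 of trained over dark-reared) of the 563 kept Z probes in females (x axis) and males (y axis), with the line of equality; coloured points passed an adjusted p of 0.05 in limma, 23 higher and 66 lower after training. Most points lie close to 0 in both sexes.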

How the data were processed

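Both arrays' scanner tables hold, as deposited, mean spot intensity and median background intensity per probe and channel, not normalized; the processed intensity beside them was background-subtracted and dye-normalized by the software, per the file headers. The deposited series table holds log2 ratios, which equal green over red processed intensity here (r = 1, column medians 0.067 and 0.082), and was used only for this check. The scanner software is given as version 9.5.3.1 per the file headers and 8.5.1.1 per the submitters' processing notes. Titles name the imprinted before the dark-reared group in words and the other way round in their sample codes. The dye labels set the direction.

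Mean signals were corrected with normexp (offset 50), then normalized by loess on each array (control spots had weight 0) and, for channel values, between arrays by Aquantile (limma 3.58.1, R 4.3.3, data.table, version 1.17.8). Spots marked as outliers took out 25 probes. A probe was kept when each array had it well above background in 1 channel or more (27372 of 42034). Training was tested with limma (lmFit, eBayes; 1 residual and 5.06 prior degrees of freedom), with Benjamini-Hochberg adjustment over all kept probes. Their p-values rest on the spread between the female and the male array, any sex difference in response included. Detection in 61.5% to 66.5% of the array's probes, and the number of arrays, limit the precision. The steps were tested on simulated data.

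Names came from a RefSeq table of GRCg7b (names and chromosomes only), and coordinates are galGal2, for which no gene annotation was used here. W genes for the check of sex were taken from GRCg7b, not from galGal2 as planned, since probes that galGal2 puts on W include Z genes. The members, lists and rules were chosen with earlier results of these data known. Genes named are, among those detected in all 4 pools, the 10 highest and 6 lowest differences, the 6 nearest 0 in the brighter part, the 4 largest disagreements between conditions, the 5 largest training means each way past the test, and both ends of each list; listed genes in between, and those named in counts of 5 or fewer, were chosen after their values were seen. No probe of the sex determination list or the chaperone list was among the members. Alternatives changed background, normalization, filter, thresholds, bins, moderation and unit. Some genes are not reported here.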

Additional observations from a re-analysis of the deposited data

Results flagged for a closer look

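At 12 of the genes named by symbol, each read from its brightest probe, the training ratio (log2 of trained over dark-reared) had opposite signs in the female and the male array. The genes screened were the named ones, the listed ones and those whose gene lies off Z in GRCg7b. The share with opposite signs over all kept probes was not computed, so the count is no trait of these genes. With 1 array per sex none of these differences was tested. By construction, each equals the gene's male minus female difference in trained pools less that in dark-reared pools. The PTPRD value is thus the disagreement between conditions already described. The male ratio minus the female ratio was 0.42 for PTPRD (-0.35 in females, 0.08 in males), 0.32 for RPL37 (-0.15 and 0.16), -0.31 for CCNH (0.27 and -0.04) and -0.27 for VCAN (0.18 and -0.09). It was -0.16 for PLPPR1, -0.13 for CHD1, -0.12 for NXN, GNAQ and CD274, -0.11 for MAP1B, -0.085 for POLK and 0.059 for F2RL1. Limma called 0 of the 12 over both arrays, and 0 of them had an unadjusted p below 0.05. Opposite signs pull the mean that limma tests toward 0, so the lack of calls follows from how these genes were chosen.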

How the results depend on the processing

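The male excess kept its direction on Z as a whole, in both conditions, under each alternative for which it was recomputed. It was not recomputed without the filter on dim probes. Every 2 Mb bin of at least 20 probes also kept it where bins were recomputed. Its size depended on the processing of background and dyes, which the processed signals change together. Under median centring the Z medians were 0.16 (trained) and 0.30 (dark-reared), where the array's were -0.03 and 0.03. With processed signals the median differences were 0.43 (trained) and 0.45 (dark-reared), 181 probes were at least 1.5-fold higher in males in both conditions, the SD among probes was 0.47 and bin medians ran from 0.23 to 0.70. With an offset of 16, 99 probes passed and the highest bin reached 0.49. A larger share passed among named genes than the 65 of 563 over all kept Z probes. It was 33 of 156 with the brightest probe per named gene and 35 of 167 with genes on Z in GRCg7b. The medians in these sets were 0.30 to 0.31 in each condition, so the size also depended on which probes were counted. Leaving out the 4 kept probes whose gene lies off Z, an alternative chosen after seeing the data, moved no value beyond the spread between conditions.

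Training calls on Z (23 higher, 66 lower) became 2 and 12 with an offset of 16, 0 and 0 with processed signals, and 9 and 374 with median centring, where the Z medians were -0.33 in females and -0.48 in males and the array's -0.30 and -0.39. Without 1 array the median ranged from -0.028 to -0.0061. The training ratios pair the 2 pools of each array by construction. No paired analysis was possible because, beyond this, the groups share only 1 replicate number.

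Training means of named genes that changed sign did so under 2 settings. Under median centring they were -0.52 for MRPS30, -0.47 for AK6, -0.55 for CWC27, -0.67 for SMAD2, -0.32 for SMC2, -0.78 for CCNH, -0.46 for PLIN2, -0.36 for ATP6AP1L, -0.53 for NSA2, -0.33 for SH3GL2, -0.55 for PAM, -0.74 for SPIN1, -0.64 for RPL37, -0.41 for VCAN, -0.15 for PTGR1, -0.57 for SGTB, -0.85 for PLPPR1, -0.76 for NRG1, -0.22 for DAZAP1 and -0.22 for CD274, all with the array's median shifted down. With processed signals they were -0.029 for CWC27, -0.026 for SMAD2, 0.20 for MRPS27, -0.071 for SPIN1, -0.14 for RPL37, -0.045 for SGTB, 0.082 for HMGCS1 and 0.057 for F2RL1, the cause of which was not tested. Signal over background limits the dimmest probes most.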
